A study of Mus musculus with 24 samples.

Results

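The transcripts described here are 10 genes of the FoxO pathway, out of 49315 genes counted in primary murine astrocytes: the transcription factors *Foxo1*, *Foxo3* and *Foxo4* and the 7 target genes *Klhl24*, *Pik3ip1*, *Sesn3*, *Txnip*, *Ccng2*, *Irs2* and *Bcl6*. They were chosen by symbol, for their levels over the dose and time groups and for the change from 6 h to 24 h, so their values in the comparison of 24 h with 6 h are a description and carry no test. Astrocytes, the glial cells that supply and support neurons, were isolated from cortices of wild type C57BL/6J embryos late in gestation, the embryos of one dam being pooled, and were used in their first passage. Dishes received 0 Gy (mock irradiation), 0.1 Gy or 2 Gy of X-rays and were harvested after 6 h or 24 h, with 4 libraries per condition and 24 in total. The culture medium held added glucose and fetal bovine serum. The study's methods describe a change of medium directly after irradiation, in the account of the cytokine assay. Its supernatants were collected from cultures harvested for the other endpoints, gene expression included. The X-ray doses listed for that assay do not include 0.1 Gy or 2 Gy. The account of the sequencing names no such change of medium, so whether the sequenced dishes received one is not known.

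FoxO proteins are forkhead transcription factors at the end of the insulin and growth factor pathway. When the pathway is active, phosphoinositide 3-kinase (PI3K) switches on the kinase Akt, which phosphorylates FoxO proteins and keeps them out of the nucleus. When signaling falls, they return to the nucleus and raise genes that slow growth, restrain the cell cycle, save nutrients and re-sensitize the cell to insulin. Messenger RNA of the factors themselves does not show where the proteins are.

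The promoters of *Txnip* and *Irs2* and a short stretch of the *Ccng2* promoter are shown because they hold letters that forkhead factors are known to recognize. RefSeq windows of the mm10 build, from 250 bases before to 50 bases after the start, were found for 8 of the 10 genes (9 windows, since *Bcl6* has 2). Both strands were searched for GTAAACA and CAAAACA, for CACGTG, the E-box, and for CACGAG, part of the element through which glucose acts on *Txnip*. These motifs and the printed sequences were picked after the windows had been read. In the sequences, which run 5′ to 3′ on the gene's strand, capitals mark the forkhead letters and, in *Txnip*, also CACGAG. The stretches are chr3:96557707-96557956 (plus strand) for *Txnip*, chr8:11008930-11009179 (minus strand) for *Irs2* and chr5:93267546-93267575 (plus strand) for *Ccng2*. RefSeq and the counted gene models place some starts differently: the model of *Ccng2* begins at 93267257, before the printed stretch, and that of *Irs2*, on the minus strand, begins at 11008458, downstream of the printed stretch. Motif positions are counted from the RefSeq start.
Txnip: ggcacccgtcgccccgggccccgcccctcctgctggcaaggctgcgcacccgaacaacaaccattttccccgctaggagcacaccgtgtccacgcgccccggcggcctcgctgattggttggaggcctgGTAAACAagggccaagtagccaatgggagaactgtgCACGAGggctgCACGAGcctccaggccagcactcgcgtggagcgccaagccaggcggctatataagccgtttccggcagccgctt
Irs2: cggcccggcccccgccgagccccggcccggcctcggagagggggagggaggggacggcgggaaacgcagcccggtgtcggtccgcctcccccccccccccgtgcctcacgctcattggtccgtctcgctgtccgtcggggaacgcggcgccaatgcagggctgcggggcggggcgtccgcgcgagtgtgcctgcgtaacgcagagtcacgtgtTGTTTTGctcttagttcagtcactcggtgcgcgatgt
Ccng2: cgtcgcagactCAAAACAaaaacaaggggt

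The *Txnip* window held GTAAACA at -121 and CACGAG at -85 and -74, counted in bases from the start. In *Irs2*, CAAAACA stood on the opposite strand (printed as TGTTTTG) at -37, next to CACGTG at -44, without overlap. *Ccng2* held CAAAACA at -16, one window of *Bcl6* CACGTG at -60, and *Foxo3* CACGAG on the opposite strand at 1. Among 32851 RefSeq windows of this length, GTAAACA was in 3.65%, CAAAACA in 6.28%, CACGAG in 6.47% and CACGTG in 7.15%. A match describes the letters of the window and not a site in use.

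Library totals lay between 14742855 and 38194800 counts, and the 10 genes passed edgeR's filter on low counts, the lowest single count being 281 for *Ccng2*. The cultures carried astrocyte transcripts at high level, with a mean of 518 CPM for *Gfap*, an intermediate filament of astrocytes, and 480 CPM for *Slc1a3*, a glutamate transporter (CPM, counts scaled to library size with edgeR's TMM factors). *Gjb6* was near 0 (mean 0.162 CPM). The 8 microglia markers summed to 245 to 280 CPM in the 6 libraries numbered replicate 2, compared to 1330 to 2090 CPM in the others. Other lists held both abundant markers and markers at or near 0. In the oligodendrocyte lineage, *Olig1* averaged 315 CPM, *Olig2* 98.9 CPM and *Cspg4* 54 CPM, while *Mog* was at 0 counts in 10 libraries. Among fibroblast and vessel markers, *Col1a1* averaged 455 CPM, *Col1a2* 261 CPM and *Pdgfrb* 63.5 CPM, while *Cldn5* was at 0 in 21 libraries, *Vtn* in 7 and *Lum* in 6. Of the neuron list, *Map2* averaged 223 CPM and *Stmn2* 214 CPM, while *Snap25*, *Rbfox3* and *Slc17a7* averaged 0.317, 0.253 and 0.288 CPM. The libraries numbered 2 also stood farthest from the other 3 of their conditions, with an SD across genes of the log2 deviation from 0.673 to 0.731. Among the others, the 2 Gy 24 h replicate 3 library (0.717) and the 0 Gy 24 h replicate 3 library (0.568) stood apart. The correlation of a library's deviations with the GC content of the gene was 0.375 and 0.571 in these, and ranged from -0.432 to 0.571 over the 24 libraries (Pearson's r across genes, and genes are not replicates). In RNA from whole dishes, fewer cells of a type and less RNA per cell cannot be told apart.

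Per kilobase of exon, the order of the 10 levels differed between the time points. At 6 h in mock-irradiated cells *Irs2* had the highest mean, 30.7 ± 2.86 CPM per kb (SD, n = 4), followed by *Txnip* (23.9 ± 9.25), *Foxo1* (12.9 ± 1.76), *Foxo3* (10.8 ± 2.38), *Foxo4* (8.74 ± 1.34), *Sesn3* (7.52 ± 0.785), *Pik3ip1* (6.52 ± 2.79), *Klhl24* (6.22 ± 0.915), *Bcl6* (5.85 ± 0.972) and *Ccng2* (2.89 ± 0.662). At 24 h *Txnip* was first with 49.6 ± 12.4 CPM per kb, followed by *Irs2* (37.6 ± 3.64), *Klhl24* (24.3 ± 5.93), *Foxo3* (17.9 ± 3.98), *Sesn3* (17.1 ± 4.98), *Pik3ip1* (14.5 ± 4.16), *Foxo1* (11.2 ± 1.18), *Foxo4* (9.62 ± 2.90), *Bcl6* (5.48 ± 1.40) and *Ccng2* (5.26 ± 0.59). Neighbors in these orders lay close enough for their intervals of mean ± 1 SD to overlap, except *Txnip* and *Foxo1* and *Bcl6* and *Ccng2* at 6 h and *Irs2* and *Klhl24* at 24 h. The genes for *Foxo1*, *Txnip*, *Irs2*, *Pik3ip1* and *Bcl6* each overlap another annotated gene, in each case with at least one on the opposite strand (for *Pik3ip1*, *Gm12592*). Whether the counting used strand is not given in the sources used here, and the values of these 5 genes may therefore include reads of their partners.

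Compared to 6 h, 4 target genes had higher levels at 24 h at every dose by 1.78-fold or more, namely *Klhl24*, *Pik3ip1*, *Sesn3* and *Txnip*. *Ccng2* was higher by 1.52-fold to 1.80-fold, *Foxo3* by 1.39-fold to 1.65-fold, *Foxo4* by 1.09-fold to 1.58-fold and *Irs2* by 1.14-fold to 1.23-fold. *Foxo1* and *Bcl6* had lower mean levels at 24 h at each dose. The median log2 fold change of the 10 genes was 0.78 at 0 Gy, 0.57 at 0.1 Gy and 0.64 at 2 Gy, beside -0.017, -0.0082 and -0.0022 over all genes tested. Over the same interval the 8 microglia markers had a median of -0.28, -0.24 and -0.18, with 0, 1 and 1 of them above 0, and the 5 fibroblast and vessel markers that passed the filter had -0.44, -0.082 and -0.14, with 0, 1 and 1 above 0. The 11 astrocyte markers that passed it had medians of -0.12, 0.059 and 0.054. The medians were 0.012, 0.11 and 0.18 for 5 neuron markers and 0.18, -0.037 and 0.062 for 7 oligodendrocyte lineage markers. In the unpaired edgeR fit 0 microglia, 0 fibroblast and vessel and 0 oligodendrocyte lineage markers were called (all genes 6.7%, 9.9% and 6.95%). In this fit 0, 1 and 1 astrocyte markers were called higher. Of the neuron markers, 0 were called at 0 Gy, 1 higher and 1 lower at 0.1 Gy and 1 lower at 2 Gy. With the block, 1 fibroblast and vessel marker was called lower at 0.1 Gy and 1 at 2 Gy (all genes 25.7% and 19.2%). At each of these doses 1 astrocyte and 1 neuron marker were then called higher and 1 of each lower. Of the oligodendrocyte lineage markers, 2 were called higher and 1 lower. The markers' part in the values of the 10 genes was not tested. The plot of levels by library shows these values, and the plot of 24 h against 6 h gives the ratio of each same-numbered pair.

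**Figure D1:**
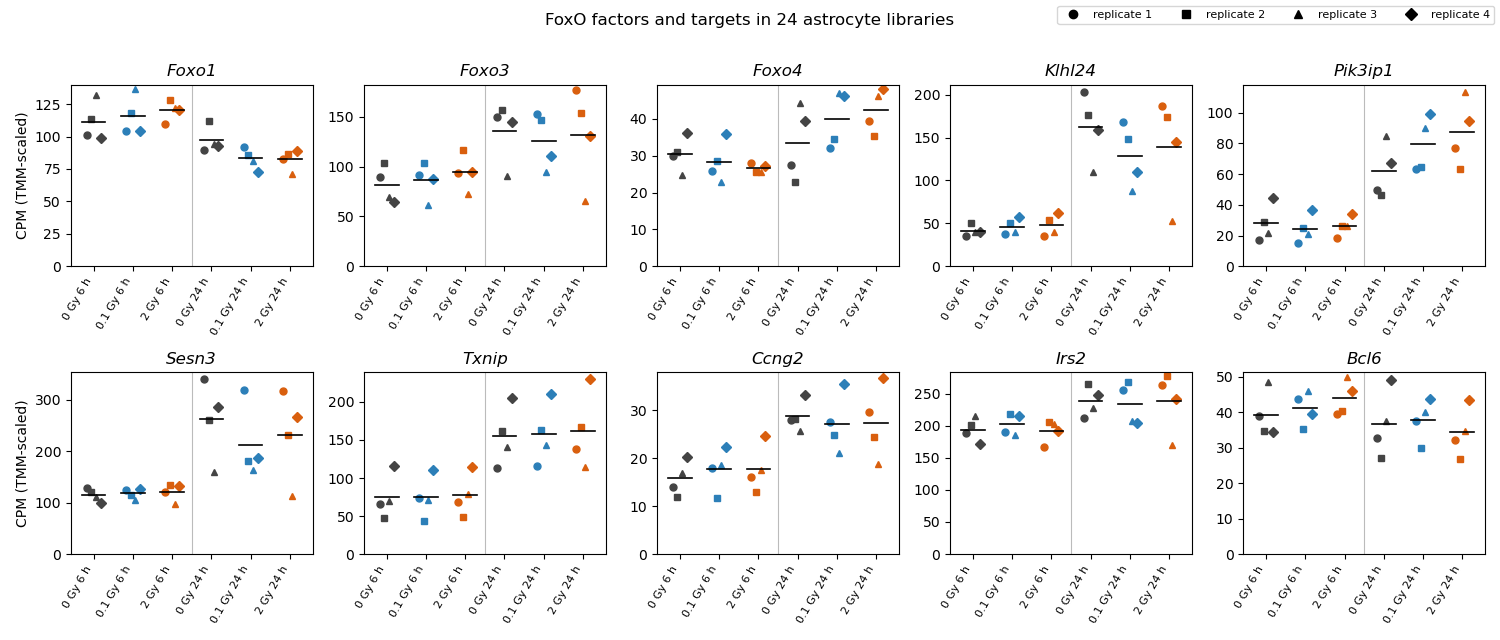
Levels of the 10 genes (CPM after TMM scaling, linear axis from 0) in the 24 libraries by dose and time, with a symbol per replicate number and a black line at the mean of 4 libraries. *Klhl24* lay between 35.5 and 62.3 CPM in the 12 libraries at 6 h and between 52.2 and 204 CPM at 24 h, where the lowest point is 2 Gy replicate 3.

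**Figure D2:**
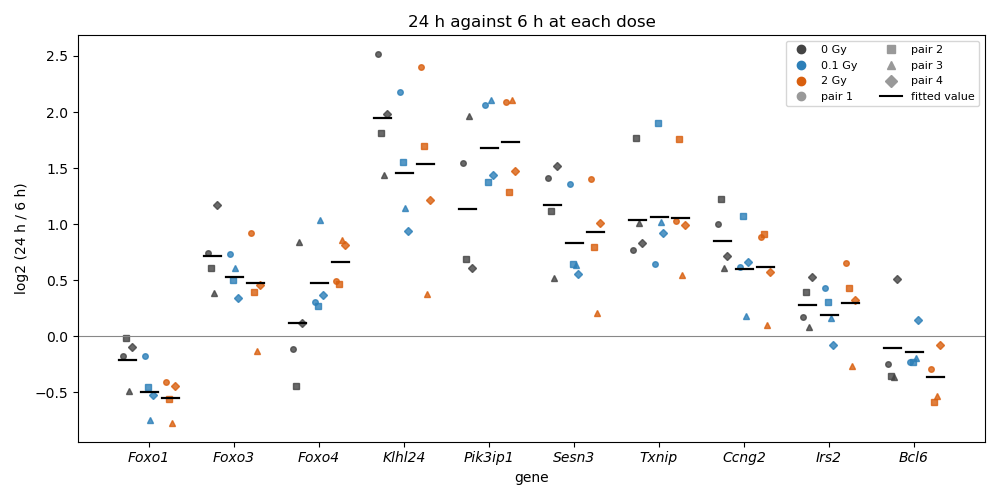
Log2 ratio of 24 h to 6 h for each gene and dose, with a symbol per same-numbered pair of libraries and a black line at the value fitted by edgeR. *Pik3ip1*, *Klhl24*, *Sesn3*, *Txnip* and *Ccng2* lie above 0 in every pair, and the *Foxo1* pairs lie below 0 at each dose.

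*Klhl24* encodes a substrate adaptor of a cullin ubiquitin ligase. In mock-irradiated cells it measured 35.5, 50.1, 40.3 and 40.4 CPM in replicates 1 to 4 at 6 h and 204, 177, 109 and 159 CPM at 24 h. After 0.1 Gy the values were 37.3, 50.3, 39.5 and 57.2 CPM at 6 h and 169, 148, 87.2 and 110 CPM at 24 h. The groups did not overlap at these doses, and the 24 h level was 3.86-fold that at 6 h at 0 Gy and 2.75-fold at 0.1 Gy. After 2 Gy it measured 35.5, 53.5, 40.2 and 62.3 CPM at 6 h and 187, 174, 52.2 and 144 CPM at 24 h. Here the groups overlapped through the 2 Gy 24 h replicate 3 library, and the log2 fold change of 1.54 ± 0.37 (SE, n = 4 per group) was 1.74 without replicate 3.

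*Pik3ip1* encodes a membrane protein that inhibits PI3K. At 6 h it measured 17.0, 28.6, 21.7 and 44.3 CPM at 0 Gy, 15.2, 25.0, 20.97 and 36.6 CPM at 0.1 Gy and 18.1, 26.0, 26.3 and 34.2 CPM at 2 Gy. At 24 h the values were 49.5, 46.1, 84.6 and 67.4 CPM at 0 Gy, 63.4, 64.9, 90.1 and 99.1 CPM at 0.1 Gy and 77.1, 63.5, 114 and 94.8 CPM at 2 Gy. *Pik3ip1* was the gene of the 10 whose groups did not overlap at any of the 3 doses (over all 15645 genes tested at the 3 doses, 3% were higher and 3.59% lower in this way), with log2 fold changes of 1.13 ± 0.31 at 0 Gy, 1.68 ± 0.27 at 0.1 Gy and 1.73 ± 0.24 at 2 Gy (SE). Without replicate 3 they were 0.85, 1.55 and 1.59. The difference between the doses in this change was not tested.

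*Sesn3*, a sestrin that restrains the growth-promoting mTORC1 complex, measured 128, 120, 111 and 100 CPM at 6 h and 341, 260, 160 and 286 CPM at 24 h at 0 Gy. After 0.1 Gy it measured 125, 115, 105 and 127 CPM at 6 h and 319, 180, 163 and 187 CPM at 24 h. The groups did not overlap at 0 and 0.1 Gy, where the change was 2.26-fold and 1.78-fold. After 2 Gy the 24 h libraries measured 318, 232, 114 and 266 CPM and overlapped the 6 h range of 98.3 to 134 CPM through replicate 3. The log2 fold change there was 0.93, and 1.07 without replicate 3. At 0.1 Gy the value of 0.83 rested in part on the high replicate 1 library at 24 h, and was 0.58 without it.

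*Txnip* encodes an arrestin-like protein that binds thioredoxin and lowers glucose uptake. Its mean was 74.7 ± 28.9 CPM at 6 h and 155 ± 38.6 CPM at 24 h at 0 Gy, 74.8 ± 27.4 and 158 ± 39.7 CPM at 0.1 Gy and 77.8 ± 27.8 and 162 ± 49.5 CPM at 2 Gy (SD, n = 4). The fitted change was 2.06-fold, 2.09-fold and 2.08-fold in this order of doses. Replicate 2 was the lowest library of each 6 h group (43.9 to 49.2 CPM), and without replicate 2 the log2 fold changes of 1.04, 1.06 and 1.05 were 0.87, 0.86 and 0.89. At 0 Gy the groups overlapped by a small margin, since replicate 4 at 6 h (115 CPM) lay above replicate 1 at 24 h (113 CPM). They also overlapped at 2 Gy, where replicate 4 at 6 h (115.1 CPM) lay above replicate 3 at 24 h (115 CPM), and did not at 0.1 Gy.

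*Ccng2*, an atypical cyclin that slows the cell cycle, was the least abundant of the targets. At 0 Gy its libraries lay between 12 and 20.3 CPM at 6 h and between 25.6 and 33.2 CPM at 24 h, a 1.80-fold difference without overlap. At 0.1 and 2 Gy the groups overlapped, with log2 fold changes of 0.60 ± 0.22 and 0.62 ± 0.26 (SE). *Irs2*, the adaptor that links the insulin receptor to PI3K, ranged from 167 to 218 CPM at 6 h and from 169 to 277 CPM at 24 h. Its log2 fold changes were 0.28 ± 0.13, 0.19 ± 0.13 and 0.30 ± 0.17 (SE), and the groups overlapped at each dose. *Bcl6*, a transcriptional repressor, lay between 34.6 and 50.1 CPM at 6 h and between 26.8 and 49.2 CPM at 24 h, with log2 fold changes of -0.11, -0.14 and -0.37.

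The 3 factors differed among themselves. *Foxo3* had a mean of 81.5 ± 18.0 CPM at 6 h and 135 ± 30.2 CPM at 24 h at 0 Gy (SD), and its log2 fold change was 0.72, 0.53 and 0.47 at 0, 0.1 and 2 Gy, with overlapping groups. *Foxo4* measured 28.0, 25.5, 25.5 and 27.3 CPM at 6 h and 39.5, 35.3, 46.3 and 48.1 CPM at 24 h after 2 Gy, without overlap, and its log2 fold change was 0.12, 0.47 and 0.66 at 0, 0.1 and 2 Gy. Without replicate 3 these were -0.13, 0.31 and 0.60. *Foxo1* measured 110, 128, 122 and 121 CPM at 6 h and 82.8, 86.9, 71.5 and 88.8 CPM at 24 h after 2 Gy, again without overlap but lower. Its log2 fold change was -0.21 ± 0.14, -0.50 ± 0.12 and -0.55 ± 0.12 (SE) at 0, 0.1 and 2 Gy, and the groups did not overlap at 0.1 Gy either.

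Across the 10 genes, the groups at 24 h and 6 h did not overlap for 4 of 10 at 0 Gy (4 higher; over all genes tested 15.3%, with 7.82% higher and 7.44% lower), for 5 of 10 at 0.1 Gy (4 higher, 1 lower; all genes 19%, with 9.6% and 9.38%) and for 3 of 10 at 2 Gy (2 higher, 1 lower; all genes 18.1%, with 8.74% and 9.36%). Since the genes were chosen for this contrast, nothing is read from these counts. The same-numbered pairs went in one direction in 4 of 4 for 8 of the 10 genes at each dose, and for 34.7%, 45.6% and 42.5% of all genes, although at 0 Gy the numbers were not taken as pairs. Without the 2 Gy 24 h replicate 3 library, the count at 2 Gy was 8 (all genes 27.5%), and without the 2 Gy 6 h replicate 4 library it was 5 (21.6%). In a fit with the replicate block that also removed trends with GC content and exon length, the 10 genes had the same direction at each dose. *Klhl24* was then at 1.67, 1.55 and 1.602 and *Pik3ip1* at 1.31, 1.75 and 1.75 on the log2 scale, the block being used at 0 Gy too.

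The effect of dose was tested for the 10 genes at both time points. The change from 6 h to 24 h was not part of these tests, but the genes were chosen with their levels in every dose group known, so that the tests are not independent of the choice. Within a time point both doses were set against the same 4 mock-irradiated libraries, so that their values are not independent. Compared to mock-irradiated cells, 0 of 10 genes were called at 0.1 Gy and 0 of 10 at 2 Gy, at 6 h and at 24 h (edgeR's quasi-likelihood test, adjusted p under 0.05), beside 0% of all genes tested in each of the 4 comparisons. At an unadjusted p under 0.05 the count in the unpaired edgeR fit was also 0 of 10 in each, where 0.15% and 1.34% of all genes passed at 6 h after 0.1 and 2 Gy and 1.49% and 3.59% at 24 h. DESeq2 and limma voom, also unpaired, called 0 of the 10, and DESeq2 called 0.00333% of all genes at 6 h and 0.725% at 24 h after 2 Gy and 0% after 0.1 Gy, and limma voom 0% in each. At an unadjusted p under 0.05 both tools had 0 of the 10, beside 0.182% and 0.799% of all genes at 6 h after 0.1 and 2 Gy and 1.17% and 2.26% at 24 h in DESeq2, and 0.162%, 1.34%, 1.74% and 3.5% in limma voom. With the replicate block, edgeR gave an unadjusted p under 0.05 to 1 and 0 of the 10 at 6 h after 0.1 and 2 Gy (all genes 3.97% and 6.88%) and to 5 and 3 at 24 h (28.1% and 32.3%). With the block and the GC and length correction these counts were 1 and 2 at 6 h (3.03% and 11.3%) and 2 and 1 at 24 h (17.5% and 21.3%). At 6 h the log2 fold changes lay between -0.19 and 0.16 after 0.1 Gy and between -0.20 and 0.21 after 2 Gy. At 24 h they lay between -0.35 and 0.34 and between -0.23 and 0.50. In edgeR's unpaired fit the SE at 24 h was up to 0.28 after 0.1 Gy and up to 0.37 after 2 Gy, the highest being that of *Sesn3* and of *Klhl24*.

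*Pik3ip1* had the largest dose difference of the 10 genes after 2 Gy at 24 h. Its mean was 61.9 ± 17.8 CPM at 0 Gy, 79.4 ± 18.0 CPM at 0.1 Gy and 87.2 ± 21.7 CPM at 2 Gy (SD, n = 4), with overlapping groups. The level was higher than in the same-numbered mock-irradiated library in 4 of 4 pairs at each dose. The log2 ratios were 0.64, 0.46, 0.42 and 0.49 after 2 Gy. The share of all genes with 4 of 4 pairs in one direction was not computed for the dose comparisons. The unpaired edgeR fit gave a log2 fold change of 0.50 ± 0.24 (adjusted p = 0.94). With the replicate number as a block, which the data allow within a time point, the change after 2 Gy was 0.51 ± 0.087 (adjusted p = 0.0141 in edgeR), where 13.2% of all genes were called, and after 0.1 Gy 0.36 ± 0.099 (adjusted p = 0.0448), where 6.84% were called. The call after 2 Gy was lost when replicate 1, 2 or 4 was left out of both groups (adjusted p = 0.0917, 0.114 and 0.0688 in edgeR, with log2 fold changes of 0.46, 0.52 and 0.52). In these fits 0.892%, 0.432% and 1.54% of all genes were called. The call stood without replicate 3 (0.54, adjusted p = 4.6e-05, 33.1% of all genes called). The call after 0.1 Gy was lost in the same way (adjusted p = 0.0634, 0.222 and 0.266 in edgeR, with log2 fold changes of 0.38, 0.31 and 0.31, and 7.18%, 0.13% and 0.0987% of all genes called). It stood without replicate 3 (0.46, adjusted p = 0.0054, 23.2% called). With the block and the correction for GC content and length it was 0.43 after 2 Gy (adjusted p = 0.0148 in edgeR, 3.56% called) and 0.29 after 0.1 Gy (adjusted p = 0.0563, 1.85% called).

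*Klhl24* was lower after 0.1 Gy in 4 of 4 pairs at 24 h, with a blocked log2 fold change of -0.36 ± 0.091 (adjusted p = 0.0367 in edgeR). The call was lost without replicate 1, 2 or 4 (adjusted p = 0.052, 0.104 and 0.266 in edgeR, with log2 fold changes of -0.37, -0.40 and -0.28, and 7.18%, 0.13% and 0.0987% of all genes called) and stood without replicate 3 (-0.36, adjusted p = 0.0181, 23.2% called). With the correction for GC content and length the value was -0.086 (adjusted p = 0.59), and the GC content of *Klhl24*, 40.9%, was the lowest of the 10 genes. After 2 Gy the unpaired value of -0.21 turned to 0.069 without the 2 Gy 24 h replicate 3 library. It was -0.084 without replicate 3 in both groups, and the level was lower in 4 of 4 pairs, with log2 ratios of -0.12, -0.022, -1.07 and -0.14. *Sesn3*, with a GC content of 45%, was at -0.31 after 0.1 Gy in the unpaired and the blocked fit and at -0.035 with the correction. The unpaired value was -0.57 without the 0.1 Gy 24 h replicate 1 library and -0.14 without the 0 Gy 24 h replicate 1 library. The part of GC content in these values was not tested further.

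*Foxo1* was the gene whose groups did not overlap between 2 Gy and mock-irradiated cells at 24 h, with 82.8, 86.9, 71.5 and 88.8 CPM after 2 Gy and 89.5, 112, 94.0 and 92.5 CPM at 0 Gy. Over all genes tested, 2.95% had groups that did not overlap in this comparison. In the other 3 dose comparisons the groups of all 10 genes overlapped, beside 0.375% and 1.17% of all genes without overlap at 6 h after 0.1 and 2 Gy and 1.11% at 24 h after 0.1 Gy. The log2 fold change of *Foxo1* was -0.23 ± 0.15 (unpaired, adjusted p = 0.94) and -0.23 ± 0.095 with the block (adjusted p = 0.134 in edgeR). *Foxo4* was higher in 4 of 4 pairs at 24 h after either dose. After 2 Gy the pairs of *Foxo1*, *Klhl24*, *Pik3ip1*, *Sesn3* and *Bcl6* also went one way. After 0.1 Gy those of *Klhl24*, *Pik3ip1* and *Txnip* did. Without a share over all genes, nothing is read from these directions. The blocked log2 fold change of *Foxo4* was 0.37 ± 0.11 after 2 Gy (adjusted p = 0.0572 in edgeR) and 0.27 ± 0.11 after 0.1 Gy (adjusted p = 0.121). With the GC and length correction *Foxo4* was at 0.19 and 0.11 after 2 and 0.1 Gy, and *Foxo1* at -0.098 after 2 Gy. *Txnip*, *Irs2*, *Ccng2*, *Foxo3* and *Bcl6* had unpaired log2 fold changes between -0.11 and 0.071 at 24 h. The plot of dose values at 24 h shows the 3 fits side by side.

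**Figure D3:**
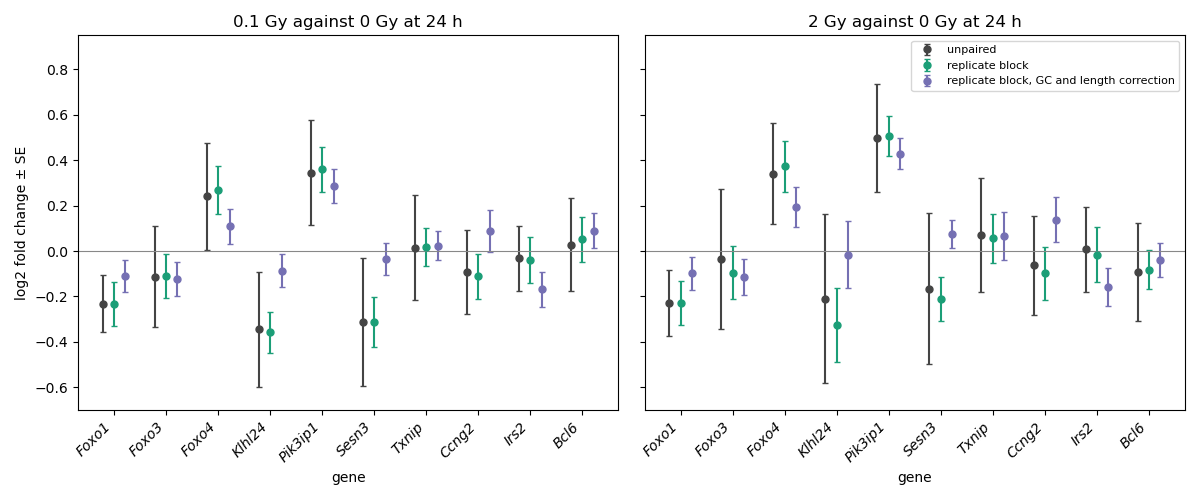
Log2 fold change ± SE (edgeR) of the 10 genes 24 h after 0.1 Gy (left) and 2 Gy (right) compared to mock-irradiated cells, in the unpaired fit, with the replicate block, and and with the block plus the GC and length correction, with n = 4 libraries per group. *Pik3ip1* is above 0 in each fit, while *Klhl24* and *Sesn3* move toward 0 or past it with the correction.

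Proliferation genes had lower levels in the irradiated libraries at 24 h. The summed level of 8 proliferation genes was 413 to 525 CPM at 0 Gy, 350 to 407 CPM after 0.1 Gy and 216 to 264 CPM after 2 Gy at 24 h. In the blocked edgeR fit, 8 of 8 were called lower after 2 Gy (13.2% of all genes called) and 5 of 8 after 0.1 Gy (6.84%). With the GC and length correction the counts were 8 and 3 (3.56% and 1.85%), and in the unpaired fit 0. From 6 h to 24 h, 0, 2 and 5 of the 8 fell at 0, 0.1 and 2 Gy in the unpaired fit (all genes called 6.7%, 9.9% and 6.95%), and 4 and 7 at 0.1 and 2 Gy with the block (25.7% and 19.2%). Their part in the values of *Pik3ip1* and *Foxo1* was not tested.

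Other genes of the pathway were taken from lists that were also chosen with earlier results of these data known. Their tests over time are therefore not independent of that choice. Of 30 other FoxO targets 25 passed the filter, with a median log2 fold change from 6 h to 24 h of 0.19, 0.19 and 0.14 at 0, 0.1 and 2 Gy. At 0 Gy 2 of them rose and 1 fell (edgeR, unpaired; all genes 6.7%), at 0.1 Gy 4 rose and 1 fell (9.9%), and at 2 Gy 2 rose and 0 fell (6.95%). *Fbxo32*, a ubiquitin ligase subunit of protein breakdown known as atrogin-1, rose at every dose, from 8.59 ± 2.07 to 28.1 ± 8.54 CPM at 0 Gy (SD, adjusted p = 0.0103 in edgeR). Its log2 fold changes were 1.69, 1.62 and 1.91. *Gabarapl1*, which acts in autophagy, rose by 0.82 at 0.1 Gy and 0.90 at 2 Gy (adjusted p = 0.012 and 0.016 in edgeR). *Pdk4*, a kinase that limits the use of pyruvate, rose by 0.91 at 0 Gy and 0.80 at 0.1 Gy (adjusted p = 0.0198 and 0.0254). *Gadd45b*, a stress gene, fell at 0 Gy with a log2 fold change of -1.13 (adjusted p = 0.02). The other calls at 0.1 Gy, named after their values were seen, were *Bnip3* (0.48) and *Gadd45b* (-0.70). With the replicate block, 8 rose and 1 fell at 0.1 Gy (all genes 25.7%) and 5 rose and 2 fell at 2 Gy (19.2%). With the block and the GC and length correction, 9 rose and 3 fell at 0 Gy, 11 and 2 at 0.1 Gy and 10 and 3 at 2 Gy (all genes 26.6%, 36.2% and 28.8%). Leaving out 1 library moved the unpaired calls from 3 to between 1 (without replicate 1 or 3 at 6 h or replicate 1 at 24 h) and 7 (without replicate 3 at 24 h) at 0 Gy, from 5 to between 2 (without replicate 1 or 3 at 6 h or replicate 1 or 4 at 24 h) and 7 at 0.1 Gy, and from 2 to between 1 (without replicate 1 or 3 at 6 h) and 3 at 2 Gy.

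Of the 28 insulin and Akt signaling genes, all of which passed the filter, 1 rose and 2 fell at 0 Gy, 1 rose and 1 fell at 0.1 Gy, and 0 rose and 1 fell at 2 Gy in the unpaired fit (all genes 6.7%, 9.9% and 6.95%). *Sgk1*, a kinase related to Akt that also phosphorylates FoxO proteins, fell at every dose. Its mean was 131.5 ± 28.0 CPM at 6 h and 77.7 ± 9.15 CPM at 24 h at 0 Gy, and the log2 fold changes were -0.77, -0.99 and -1.01 (adjusted p = 0.027, 0.0209 and 0.0081 in edgeR). The fourth factor of the family, *Foxo6*, fell from 3.70 ± 0.56 to 0.916 ± 0.40 CPM at 0 Gy (adjusted p = 0.012). The remaining calls, named after their values were seen, were the Akt phosphatase *Phlpp1* at 0 Gy (0.65) and the PI3K subunit *Pik3r2* at 0.1 Gy (0.43). With the block, 3 rose and 1 fell at 0.1 Gy and 1 rose and 3 fell at 2 Gy (25.7% and 19.2%). With the block and the GC and length correction 7 rose and 3 fell at 0 Gy, 6 and 1 at 0.1 Gy and 2 and 4 at 2 Gy (all genes 26.6%, 36.2% and 28.8%). Leaving out 1 library moved the unpaired calls at 0 Gy from 3 to between 0 (without replicate 1 at 6 h or replicate 1 or 4 at 24 h) and 9 (without replicate 3 at 24 h). At 0.1 Gy it moved them from 2 to 0 without replicate 3 at 6 h or replicate 3 or 4 at 24 h, so that the call of *Sgk1* was lost there too, and at 2 Gy from 1 to 3 without replicate 3 at 24 h.

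Among the 9 genes of *Txnip* and glucose sensing, 1 rose and 2 fell at 0 Gy, and 0 rose and 2 fell at 0.1 and at 2 Gy (all genes 6.7%, 9.9% and 6.95%). With the block, 1 rose and 3 fell at 0.1 Gy and 1 rose and 2 fell at 2 Gy (25.7% and 19.2%). With the block and the GC and length correction 1 rose and 4, 3 and 3 fell at 0, 0.1 and 2 Gy (all genes 26.6%, 36.2% and 28.8%). Leaving out 1 library moved the unpaired calls to between 1 (without replicate 1 or 3 at 6 h or replicate 1 or 4 at 24 h) and 4 at 0 Gy, to between 2 and 3 at 0.1 Gy, and to 1 without replicate 1 or 3 at 6 h or replicate 1 or 4 at 24 h at 2 Gy. *Slc2a1*, the glucose transporter GLUT1, fell from 208 ± 16.3 to 88.7 ± 20.98 CPM at 0 Gy, with log2 fold changes of -1.25, -1.08 and -1.08 (adjusted p = 0.0083, 0.0054 and 0.0151 in edgeR). *Mlx*, the partner of the glucose-sensing factors that act on *Txnip*, fell at every dose (-0.81, -0.93 and -0.94, adjusted p = 0.0138, 0.0064 and 0.0088). *Arrdc4*, a relative of *Txnip*, rose by 0.75 at 0 Gy (adjusted p = 0.0457). Of the 4 relatives of *Sesn3* and *Ccng2*, 0 were called over time in the unpaired fit (all genes 6.7%, 9.9% and 6.95%). When 1 library was left out, this count was 0 or 1 at each dose. With the block 1 rose at 0.1 Gy and 1 at 2 Gy (25.7% and 19.2%). With the block and the GC and length correction 3, 2 and 1 rose at 0, 0.1 and 2 Gy (26.6%, 36.2% and 28.8%).

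In the dose comparisons, 0 genes of these lists were called in the unpaired fit. The genes that follow were named after their values were seen. *Foxo6* at 24 h had a mean of 0.916 ± 0.40 CPM at 0 Gy, 2.14 ± 0.97 CPM after 0.1 Gy and 2.14 ± 1.16 CPM after 2 Gy (SD). Its difference passed the test with the block (adjusted p = 0.0262 and 0.0224 in edgeR) and did not with the block and the GC and length correction (adjusted p = 0.0523 and 0.17). *Txn1*, the thioredoxin that *Txnip* binds, was higher at 24 h in both of these fits, with 117 ± 35.9 CPM at 0 Gy, 155 ± 27.9 CPM after 0.1 Gy (adjusted p = 0.0302 and 0.0215 in edgeR) and 154.5 ± 70.3 CPM after 2 Gy (adjusted p = 0.0438 and 0.0417). With the block alone, other calls at 24 h included *Bbc3* higher and *Rictor* lower after 0.1 Gy, and *Cdkn1a*, *Bbc3* and *Sesn2* higher and *Rictor* and *Skp2* lower after 2 Gy (all genes 6.84% and 13.2%). The next values are from the block with that correction, and at 6 h the block alone called 0 genes of these lists and 0% of all genes. At 6 h after 2 Gy, *Ccng1* and *Sesn2*, relatives of *Ccng2* and *Sesn3* that are known p53 targets, were higher, at 511 ± 117 against 850 ± 188 CPM (adjusted p = 0.0074) and 68.5 ± 19.6 against 99.0 ± 21.9 CPM (adjusted p = 0.0055 in edgeR), where 0.721% of all genes were called. In the same comparison *Ccng2* and *Sesn3* were at 0.062 and -0.013 on the log2 scale (adjusted p = 0.79 and 0.947). The difference between relatives was not tested. *Cdkn1a*, the p21 cell cycle inhibitor that both FoxO factors and p53 are known to raise, was higher after 2 Gy at 6 h (adjusted p = 0.0049) and at 24 h (321 ± 57.1 against 475 ± 86.0 CPM, adjusted p = 0.027 in edgeR, 3.56% of all genes called). At 24 h the other calls among the FoxO targets in this fit were *Bbc3*, *Sod2* and *Fbxo32*, each higher (adjusted p = 0.0463, 0.0362 and 0.0417), and *Cdkn1b* was lower at 6 h (adjusted p = 0.0385).

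Genes with the most similar course over the 6 group means were sought among 14331 genes, for the 4 members whose means spanned at least 1 on the log2 scale. The measure was the root mean square difference of centered log2 means, over 6 conditions. *Klhl24* was nearest to *Sh3rf2* (0.0552) and *Kcnab1* (0.0976), *Pik3ip1* to *Klf15* (0.0648) and *Ccdc151* (0.0679), *Sesn3* to *Cavin2* (0.0212) and *Gabrb1* (0.0347), and *Txnip* to *Sorbs3* (0.0261) and *Nim1k* (0.0279).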

How the data were processed

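Polyadenylated RNA of 24 astrocyte libraries was sequenced as paired reads in 1 run. For each library the authors deposited a table of raw counts by gene, with identifiers and coordinates of mm10 as named in the submitters' processing notes. Aligner, counting tool and strand are not given in the sources used here. Groups and replicate numbers came from the sample labels. Whether same-numbered libraries share a preparation is not stated in the labels.

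The main test was edgeR 4.0.16 in R 4.3.3 (TMM, filter on low counts, quasi-likelihood test, Benjamini-Hochberg adjustment over all genes tested, called at an adjusted p under 0.05), on the 8 libraries of the groups compared. Levels are CPM after TMM scaling. Alternatives used DESeq2 1.42.0, limma 3.58.1, other scaling and filters, a replicate block with and without a spline correction (5 degrees of freedom) for GC content and length from GENCODE M21, all libraries in 1 fit, and each library left out. Leaving out a replicate number in both groups was added after the data were seen. Scripts were tested on simulated data.

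The genes and lists were chosen with earlier results of these data known. Named were the 10 genes, the 3 list genes with the largest change in each direction among those called in each unpaired comparison and any called at all 3 doses over time, and 2 nearest profiles for members spanning at least 1 on the log2 scale. Others are said to be named after their values were seen.

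Deviations of same-numbered libraries from their group means correlated across genes at 0.549 to 0.946 in each dose comparison, 0.384 to 0.864 over time at 0.1 Gy and 0.229 to 0.845 at 2 Gy, and were taken as pairs. Over time at 0 Gy the lowest was 0.0198 and no pairing was taken. No 2 libraries of one condition agreed within sampling noise.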

Additional observations from a re-analysis of the deposited data

Results flagged for a closer look

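*Sesn3* in the 0.1 Gy 24 h replicate 1 library, at 319 CPM, lay far above the other 3 libraries of its condition by Dixon's test, which was applied to 60 sets of 4 libraries and picks out about 1 set in 20 by chance.

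For 3 genes each of the 4 same-numbered pairs moved one way at 6 h and the opposite way at 24 h compared to 0 Gy. After 0.1 Gy, *Foxo4* had a log2 fold change of -0.105 at 6 h and 0.24 at 24 h, and *Pik3ip1* of -0.191 and 0.344. After 2 Gy, *Bcl6* had 0.167 at 6 h and -0.0918 at 24 h. When 1 library was left out, *Pik3ip1* at 6 h ranged from -0.45 to 0.12 and *Bcl6* at 24 h from -0.22 to 0.076. The other values kept their sign. The share of all genes with such pairs was not computed, and the differences between the time points were not tested.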

How the results depend on the processing

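The number of the 10 genes called in a dose comparison was 0 under each other setting, except with the replicate block, where it was 2 at 24 h after 0.1 Gy and 1 after 2 Gy (all genes 6.84% and 13.2%), and with the block and the GC and length correction, where it was 1 after 2 Gy (3.56%). Blocked fits without replicate 3, chosen after the data were seen, called 4 after 0.1 Gy (all genes 23.2%) and 2 after 2 Gy (33.1%), and without any other number 0. Over time, 8 of 10 genes had all 4 same-numbered pairs in one direction at each dose (all genes 34.7%, 45.6% and 42.5%), compared to 4, 5 and 3 whose groups did not overlap. When 1 library or 1 replicate number was left out, the latter counts ranged from 4 to 6 at 0 Gy, 5 to 7 at 0.1 Gy and 3 to 8 at 2 Gy. With 1 library left out, the share of all genes also moved, from 16.2% to 33% at 0 Gy, 20.6% to 27.4% at 0.1 Gy and 19.9% to 27.5% at 2 Gy.

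Small dose values changed sign. With the block and the correction, *Sesn3* was at -0.021 and -0.013 at 6 h after 0.1 and 2 Gy and 0.075 at 24 h after 2 Gy, *Irs2* at 0.047 at 6 h after 2 Gy and -0.16 at 24 h after 2 Gy, and *Ccng2* at 0.088 and 0.14 at 24 h after 0.1 and 2 Gy. Under library size alone, *Txnip* was at -0.00078 at 6 h and *Irs2* at 0.052 at 24 h after 0.1 Gy. *Irs2* after 2 Gy at 24 h was at -0.017 in limma voom, -0.016 with the block and -9.9e-05 with all libraries in 1 fit. Values that turned when 1 library was left out ranged, at 6 h after 0.1 Gy, from -0.026 to 0.15 (*Foxo1*), -0.023 to 0.22 (*Foxo3*), -0.45 to 0.12 (*Pik3ip1*), -0.022 to 0.097 (*Sesn3*) and -0.25 to 0.29 (*Txnip*). At 6 h after 2 Gy the ranges were -0.066 to 0.036 (*Irs2*), -0.029 to 0.32 (*Ccng2*), -0.28 to 0.22 (*Pik3ip1*) and -0.20 to 0.35 (*Txnip*). At 24 h after 0.1 Gy they were -0.27 to 0.012 (*Foxo3*), -0.12 to 0.030 (*Irs2*), -0.24 to 0.021 (*Ccng2*), -0.15 to 0.19 (*Txnip*) and -0.094 to 0.21 (*Bcl6*). At 24 h after 2 Gy they were -0.22 to 0.19 (*Foxo3*), -0.40 to 0.069 (*Klhl24*), -0.081 to 0.15 (*Irs2*), -0.23 to 0.093 (*Ccng2*), -0.37 to 0.070 (*Sesn3*), -0.13 to 0.23 (*Txnip*) and -0.22 to 0.076 (*Bcl6*). Over time at 0 Gy they were -0.037 to 0.29 (*Foxo4*) and -0.27 to 0.028 (*Bcl6*). The cause was not tested.

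Precision is limited by 4 libraries per group, with total counts down to 14742855. No detection limit was computed. The block over time at 0 Gy, where the numbers were not taken as pairs, moved the calls among other FoxO targets from 3 to 7. It moved those among insulin and Akt genes from 3 to 6, and among relatives of *Sesn3* and *Ccng2* from 0 to 2. Over all genes tested the share called moved from 6.7% to 15.3%.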
